A study of Mus musculus with 8 samples.

Results

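Acetylated histone H3 (H3ac) was mapped by ChIP-seq in RAW 264.7, an established mouse line with the features of macrophages. The regions described here are the few places where called H3ac peaks reached over more bases after CuNZ@Gel than after Gel. CuNZ@Gel is the nanozyme hydrogel of the series, a nanozyme being a nanomaterial with enzyme-like activity. Gel is the treatment label of the comparison group, and nothing more is said of its make-up. Both groups share the cell line and the antibody, and per the labels' protocols cells met gel extracts for 48 h and were fixed with 1% formaldehyde for 10 min. The shared protocol text speaks of CuNZ@Gel extracts only, so a library's group rests on its treatment label. Each group had 2 immunoprecipitated libraries, and the labels do not tell whether they were separate cultures. Differences between replicates may therefore be technical.

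Peaks of the 4 lists on chromosomes 1 to 19, X and Y were merged wherever they overlapped by at least 1 bp, which gave 81544 regions, of which 21909 held a peak in every library. The 275 members were selected on covered width alone: a region was chosen when the bases covered by peaks in each CuNZ@Gel library exceeded those in each Gel library. They make up 1.26% of the shared regions, against 16321 regions, or 74.5%, with the opposite order. Widths in all 4 libraries chose the set, so every width, fold and fragment count below describes it and is not tested. The CuNZ@Gel lists were shorter, with 40075 and 34693 peaks against 58612 and 60483. The commonest background solved from their peaks was 3.45 and 2.46 fragments per base, against 4.62 and 4.28 in Gel. List length and background thus moved with the groups, and their part in the widths was not tested. Read totals are unknown. Leaving out 1 library loosens the rule: the count was 1004 without Gel replicate 1, 947 without Gel replicate 2, 913 without CuNZ@Gel replicate 1 and 1784 without CuNZ@Gel replicate 2.

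Acetyl groups on the tail of histone H3 weaken its hold on DNA and are bound by bromodomain proteins that help to start transcription. H3ac is found at active promoters and enhancers, and it can spread over several neighbouring nucleosomes. In macrophages, inflammatory stimuli are known to add acetylation at enhancers and promoters of response genes. All positions are 1-based on GRCm39, the build in the submitters' processing notes. Genes and sequences are not given, because the reference tables used here are of the older build GRCm38 and positions were not converted.

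**Figure D1:**
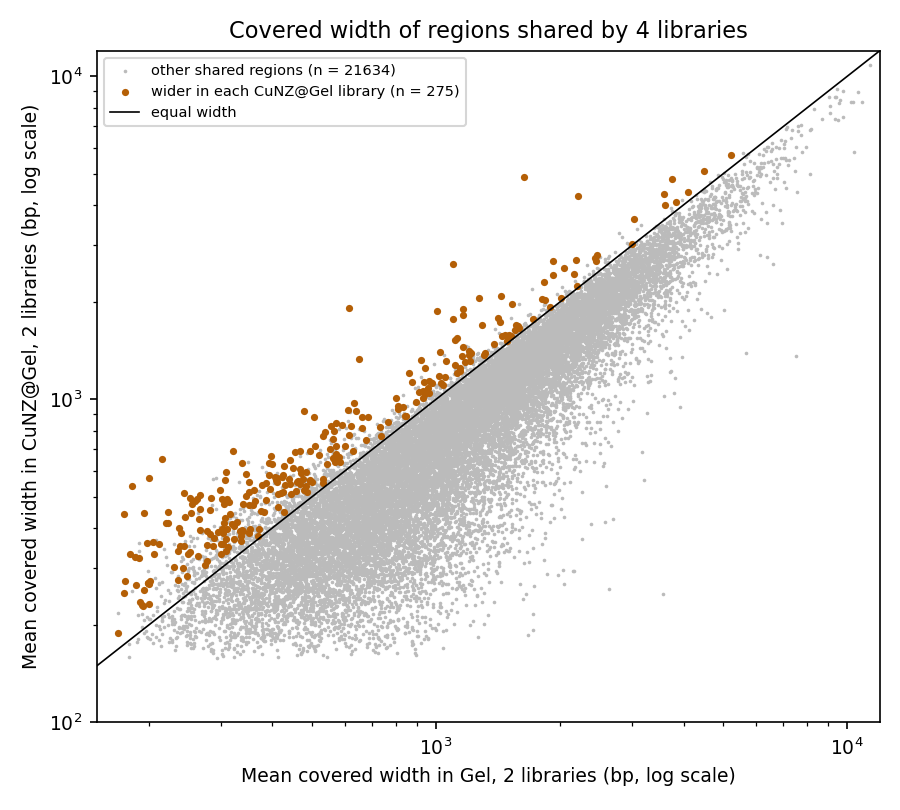
Mean bases covered by peaks in Gel (x axis, bp, log scale) and in CuNZ@Gel (y axis, bp, log scale) for the 21909 regions with a peak in all 4 libraries. The 275 regions wider in each CuNZ@Gel library (orange) lie above the line of equal width, mostly close to it, while most other shared regions (grey) lie below.

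Most of the 275 regions were wider by little. The gain, meaning the mean covered width in CuNZ@Gel minus that in Gel, had a median of 134 bp, with quartiles of 79 and 229 bp and a range of 8 to 3257 bp. As a share of the Gel width the median gain was 26.8%, and 12 regions more than doubled. Over all shared regions the median difference was -298 bp. The gap, meaning the lower CuNZ@Gel width minus the higher Gel width, had a median of 52 bp and was under 50 bp in 135 regions, 50 to under 200 bp in 104, and at least 200 bp in 36. The median difference between replicates of these regions was 47 bp for Gel and 59 bp for CuNZ@Gel. In 102 of the 275 regions (37.1%) the gap exceeded the replicate difference in both groups. From the smallest to the largest gap class this held for 18 of 135, 52 of 104 and 32 of 36 regions. Choosing regions by a large gap favours this, so the counts describe the classes and are no evidence for them. On the opposite side, 8511 regions had a gap of at least 200 bp in favour of Gel.

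The rule has a sharp edge, and the regions nearest to it on either side differ in gap by only 1 or 2 bp. The chromosome 9 member from 41071621 to 41071979 had 248 and 300 bp in Gel against 301 and 314 bp in CuNZ@Gel, a gap of 1 bp. A member on chromosome 11, from 72440864 to 72441321, also passed by 1 bp, and a member on chromosome 2, from 152172523 to 152174605, by 2 bp. Just outside, regions on chromosome 2 from 25465099, on chromosome 3 from 94479322 and on chromosome 4 from 149254458 had a gap of 0 bp. The last had 1198 and 893 bp in Gel against 1545 and 1198 bp in CuNZ@Gel. Its summit fragments, given under other observations, were higher in each CuNZ@Gel library.

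The largest gap, 3034 bp, lay on chromosome 6 from 123237805 to 123242849. The Gel libraries had 1705 and 1562 bp under peaks there, against 5041 and 4739 bp in the CuNZ@Gel libraries. In Gel the region was broken into 3 and 4 separate peaks, and in CuNZ@Gel it was 1 and 2 peaks that spanned nearly all of it. Of the bases covered in both CuNZ@Gel libraries and in neither Gel library, 602 lay before the first Gel peak, 868 after the last and 919 between Gel peaks. The highest fold of a peak in the region, the authors' enrichment over background, was 5.16 and 3.97 in Gel and 11.6 and 12.5 in CuNZ@Gel. The highest summit fragments, solved from the authors' fold and p, were 28 and 25 in Gel against 65 and 59 in CuNZ@Gel. The order thus held before any scaling by library background. The highest local background here was 1.58 times the library background in Gel replicate 2, and 1.35 and 1.55 times in the CuNZ@Gel replicates. Here and below, fold, summit fragments and local background are each the highest over a library's peaks in a region. They need not come from the same peak.

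The chromosome 10 region from 51355962 to 51360983 had the next largest gap. Its covered width was 2205 and 2226 bp in Gel against 4584 and 3964 bp in CuNZ@Gel. Nearly all of the newly covered bases, 1381 of 1395, lay beyond the last Gel peak, so the region grew on 1 side. The maximum fold was 11.8 and 8.97 in Gel and 20.9 and 21.3 in CuNZ@Gel, and summit fragments were 65 and 58 against 92 and 80. A second member followed from 51366422 to 51371330, with 3541 and 3611 bp in Gel against 4397 and 4229 bp in CuNZ@Gel. The folds there lay close together, at 20.8 and 21.2 against 23.2 and 22.3, and 424 of the 487 newly covered bases closed gaps between Gel peaks.

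A pair of neighbouring members lay on chromosome 3. The larger one, from 50395192 to 50398292, had 1370 and 826 bp in Gel against 2810 and 2455 bp in CuNZ@Gel, so the Gel replicates were far apart but below both CuNZ@Gel values. Its folds were 9.94 and 11.9 against 14.2 and 17.6, but its summit fragments, 67 and 62 against 62 and 60, were not higher in CuNZ@Gel. Immediately before it, the region from 50392697 to 50394027 had 835 and 881 bp in Gel against 1209 and 1213 bp in CuNZ@Gel. This smaller region had the clearer rise in height, with 23 and 21 summit fragments against 42 and 40.

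The chromosome 1 region from 165595394 to 165597481 had 946 and 281 bp in Gel against 1924 and 1917 bp in CuNZ@Gel. Its Gel replicates were far apart and its folds low, 4.16 and 2.66 against 5.78 and 6.15. The chromosome 7 region from 140972145 to 140974078 had tight replicates, with 1014 and 1000 bp in Gel against 1837 and 1926 bp in CuNZ@Gel. All of its 807 newly covered bases lay on 1 side, and the fold was 4.88 and 5.11 against 9.89 and 9.83. The chromosome 4 region from 116542172 to 116547707 behaved otherwise: widths were 3444 and 4044 bp against 4742 and 4910 bp, but the folds overlapped between groups, at 22.8 and 17.9 against 17.1 and 19.96. Its summit fragments were lower in CuNZ@Gel, at 75 and 68 against 127 and 110. The chromosome 1 region from 45963639 to 45965583 also widened without a clear change at the summit. It had 1051 and 1153 bp in Gel against 1789 and 1759 bp in CuNZ@Gel, with folds of 9.62 and 7.38 against 10.1 and 7.52.

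**Figure D2:**
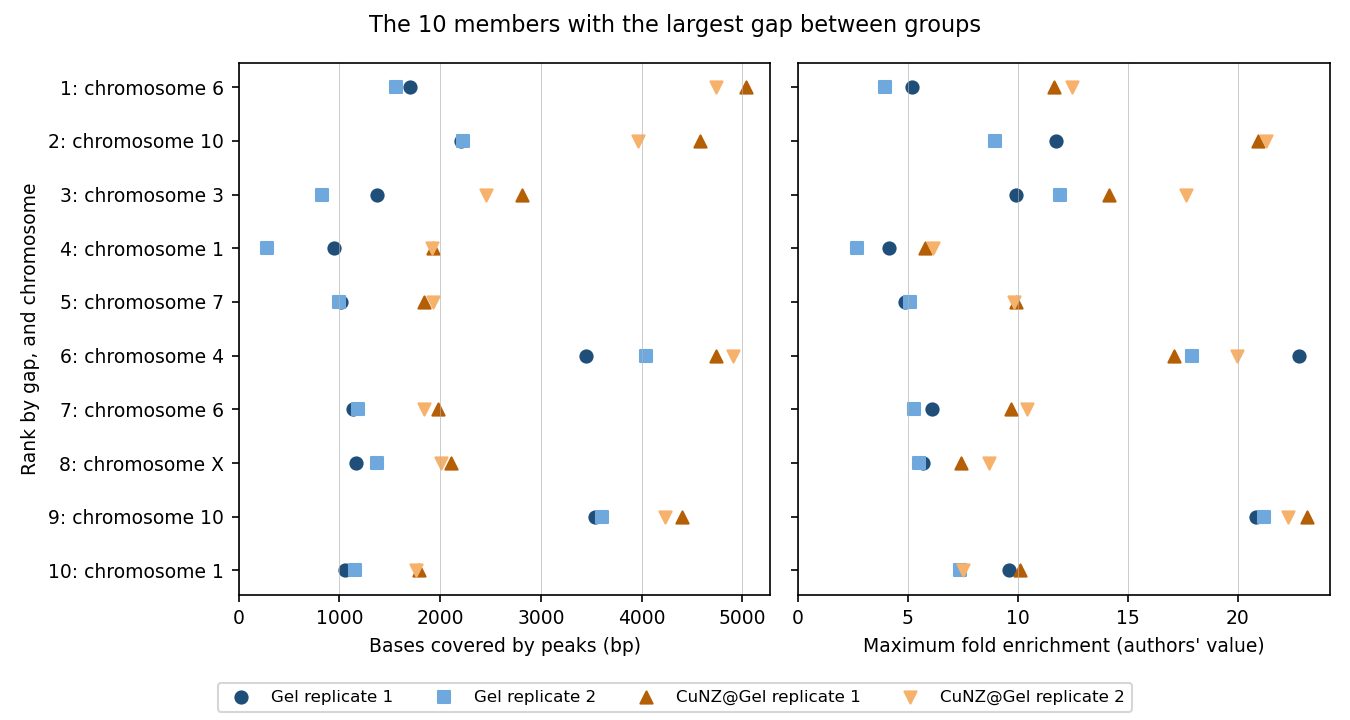
Bases covered by peaks (left, bp) and the authors' maximum fold enrichment (right) in each of the 4 libraries for the 10 members with the largest gap, ranked from 1 at the top. Each point is 1 library. Widths do not overlap between groups in any row, by the rule, while the fold is higher in both CuNZ@Gel libraries in 8 of the 10 rows and overlaps in the chromosome 4 and the lower chromosome 1 row.

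Across the whole set, wider coverage did not always come with a taller peak. The median of the maximum fold was 5.34 and 5.49 in Gel and 5.85 and 5.96 in CuNZ@Gel. Over all shared regions the medians ran the other way, 8.01 and 7.95 in Gel and 6.35 and 6.07 in CuNZ@Gel. The fold was higher in each CuNZ@Gel library than in each Gel library in 93 of the 275 regions (33.8%), where 4.55% of all shared regions had that order. It was lower in both in 66 regions (24.0%), against 63.2% of all shared regions. Fold and width come from the same peaks, so these shares describe the set and are no separate evidence for it. With all lists cut to the same length, 60 of 224 members had the higher fold. Without Gel replicate 1, Gel replicate 2, CuNZ@Gel replicate 1 or CuNZ@Gel replicate 2 the number was 399 of 1004, 366 of 947, 324 of 913 or 594 of 1784. The share of all shared regions with a higher fold was not counted with equal lists or with a library left out.

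The share with a higher fold grew with the gap. It was 27 of the 135 regions with a gap under 50 bp, 42 of the 104 regions from 50 to under 200 bp, and 24 of the 36 regions with at least 200 bp. Summit height, meaning summit fragments divided by the background of the library, was higher in each CuNZ@Gel library in 118 of the 275 regions (42.9%), where 7.18% of all shared regions had that order. The same count in regions with a gap of at least 200 bp was 26 of 36. The height depends on the scaling by background, which was lower in CuNZ@Gel.

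Unscaled, summit fragments were higher in each CuNZ@Gel library in only 10 of the 275 regions, beside 0.0913% of all shared regions, and they were lower in both in 150 regions (54.5%), beside 92.0% of all shared regions. Since so few shared regions had more fragments in both CuNZ@Gel libraries, all 10 members are named; they were picked after their values were seen. They include the chromosome 6 region from 123237805, the chromosome 10 region from 51355962, the chromosome 7 region from 140972145 and the chromosome 3 region from 50392697, all given above. The chromosome 3 region from 122039295 to 122042073 had 68 and 76 fragments in Gel and 109 and 80 in CuNZ@Gel. That region had 2421 and 2453 bp against 2722 and 2760 bp, and folds of 10.4 and 12.6 against 21.7 and 22.3. The chromosome 7 region from 99180174 to 99181559 had 20 and 25 fragments against 35 and 31. Chromosome 2 held a region from 132053710 to 132054361, with 22 and 23 against 34 and 28, and another from 167767568 to 167768081, with 21 and 23 against 28 and 28. The last pair was small: 15 and 15 against 18 and 20 on chromosome 10 from 75734630 to 75735406, and 20 and 17 against 31 and 21 on chromosome X from 73468281 to 73468904. Without Gel replicate 1, Gel replicate 2, CuNZ@Gel replicate 1 or CuNZ@Gel replicate 2 such members were 48 of 1004, 27 of 947, 20 of 913 or 147 of 1784. Leaving out 1 library also loosens this order of fragments. Its share over all shared regions was not counted in these settings.

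Members with small gaps were short, and those with large gaps were not. The median merged width was 607 bp for the 135 regions with a gap under 50 bp and 1960 bp for the 36 with at least 200 bp. Over all members it was 707 bp, against 1225 bp for all shared regions, and 178 of the 275 (64.7%) were under 1000 bp, against 37.8% of all shared regions. With a gap of at least 100 bp required, 42.5% of 80 members were under 1000 bp. By width class, members made up 4.46% of shared regions under 500 bp, 1.70% from 500 to under 1000 bp, 0.748% from 1000 to under 2000 bp, 0.518% from 2000 to under 4000 bp and 1.58% at 4000 bp or more. The share thus fell with width and was higher again in the widest class, where it rests on 10 regions. Gaps were larger in wider regions, with a median of 28 bp under 500 bp and 399 bp at 4000 bp or more. The width of a region includes the bases gained, so class and gain are not independent.

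**Figure D3:**
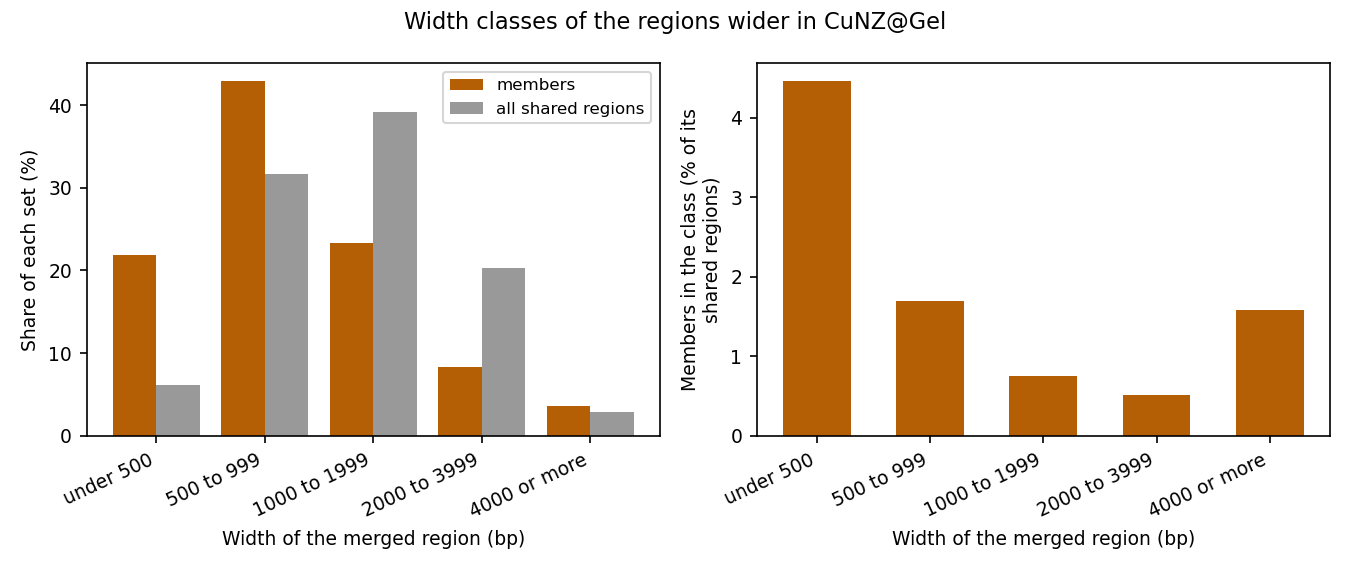
Left, the share (%) of the 275 members (orange) and of all 21909 shared regions (grey) in each class of merged region width (bp). Right, members as a share (%) of the shared regions of a class: 4.46% under 500 bp, 0.518% from 2000 to under 4000 bp and 1.58% at 4000 bp or more.

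Of the 10 members of 4000 bp or more, all but the chromosome 6 region had a maximum fold of 8.97 to 31.2 in every library. Besides the chromosome 6 region and the chromosome 10 and 4 regions above, they included chromosome 13 from 5911546 to 5916784, with 4414 and 4543 bp in Gel against 5226 and 4945 bp in CuNZ@Gel. All of its 381 newly covered bases lay after the last Gel peak. On chromosome 8, from 35274482 to 35278524, widths were 3630 and 3585 bp against 3977 and 4021 bp, and the 326 newly covered bases also lay on 1 side. The widest, on chromosome 11 from 50097004 to 50102896, had 5209 and 5228 bp against 5623 and 5774 bp. Its summit folds overlapped, at 20.9 and 22.1 against 22.9 and 19.7. The other members of this class were on chromosome 1 from 165591324, chromosome 4 from 8910265 and chromosome 8 from 84926870, with gaps of 137 to 166 bp.

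New coverage lay mainly at the edges of existing peaks. Over the 275 regions, 34240 bases were covered in both CuNZ@Gel libraries and in neither Gel library, and 2437 bases had the opposite pattern. Of the 34240, 88.7% lay outside the outermost Gel peaks and 11.3% between them. Gain was on 1 side only in 200 regions, on both sides in 35, and between Gel peaks in 15. In 35 regions no base met this strict definition. All 4 libraries had a single peak in 232 of the 275 regions (84.4%), against 66.8% of all shared regions. CuNZ@Gel had fewer peaks than Gel in both libraries in 5 members, an order found in 0.429% of all shared regions. It had more in 3 members, an order found in 6.86% of all shared regions. Summits stayed near their place: the median distance between summits of a Gel and a CuNZ@Gel library was 63 bp in the members, and 52.5 bp between replicates. Over all shared regions these distances were much the same, at 64 and 55 bp.

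The same widths were also read pair by pair, with regions wider in 1 CuNZ@Gel library than in 1 Gel library looked up in the other pair. Of the 2766 shared regions wider in CuNZ@Gel replicate 1 than in Gel replicate 1, 468 (16.9%) were also wider in CuNZ@Gel replicate 2 than in Gel replicate 2, against 8.02% of all shared regions. The 275 members are among these 468 by the rule, so the share describes the set and is no separate support for it. Most regions wider in this pair of libraries, by any amount, were thus not wider in the other. With the pairs chosen otherwise the share was 27.2%, 16.1% or 26.6%, against 13.1%, 7.72% or 12.6% of all shared regions. Among the few regions wider by more than 500 bp in the choosing pair it was higher, from 23 of 61 (37.7%) to 18 of 25 (72.0%). Members are among these too by the rule. Each pair had 1 library a group, and no test was made.

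Members were spread over every chromosome but Y. Their share of the shared regions ran from 0.759% on chromosome 14 to 1.77% on chromosome 6, and Y had none among 4 shared regions. On the scale of neighbours they were closer together. The next shared region on either side was itself a member for 24 of 275 members (8.73%), and for 2.38% of other shared regions. Within 10 kb, 7.64% of members had another member and 1.27% of other shared regions had one, and within 1000 kb the shares were 42.2% and 32.2%. Members with large gaps more often had a member beside them. This held for 13 of the 36 with a gap of at least 200 bp. It held for 5 of the 104 from 50 to under 200 bp and 6 of the 135 under 50 bp. Neighbours can lie very close: on chromosome 1 a member ended at 165595375 and the next began at 165595394. With lists of equal length, 13 of 224 members were neighbours. Without Gel replicate 1 or Gel replicate 2 the number was 118 of 1004 (11.8%) or 110 of 947 (11.6%). Without CuNZ@Gel replicate 1 or CuNZ@Gel replicate 2 it was 91 of 913 (9.97%) or 254 of 1784 (14.2%). Members then made up 4.45%, 4.19%, 3.77% and 6.53% of shared regions in that order, against 1.26% with all 4 libraries. A higher share of members alone puts more regions beside a member. The share of other shared regions beside a member was not counted in these settings or with lists of equal length. The numbers from all of them are thus no separate support for closeness.

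**Figure D4:**
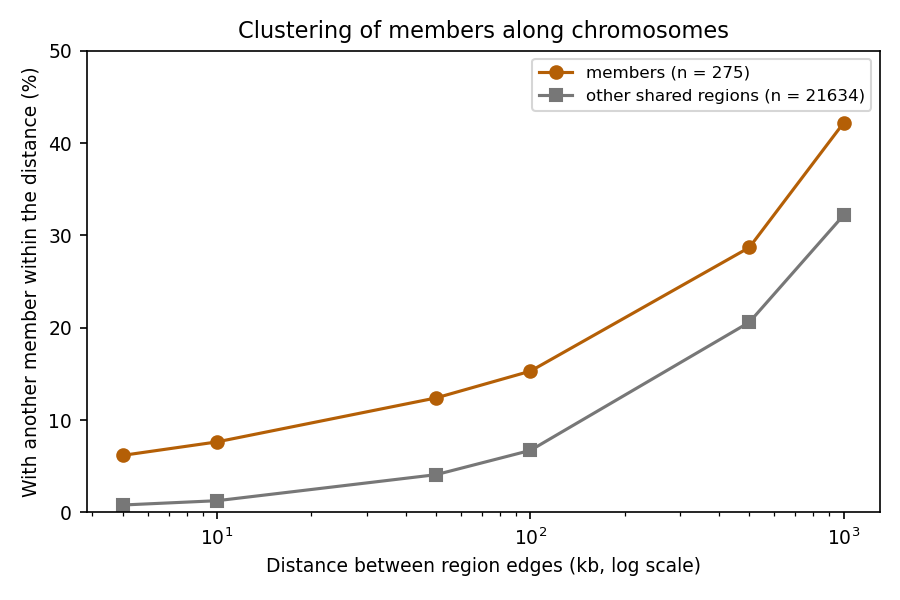
Share (%) of the 275 members (orange circles) and of the 21634 other shared regions (grey squares) with another member within a given distance of their edges (kb, log scale). Members lie above the others at each distance, from 6.18% against 0.804% at 5 kb to 42.2% against 32.2% at 1000 kb.

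Joining members no more than 100 kb apart gave 4 runs of 3 members and 15 pairs, and left 233 members alone. The run on chromosome 6 spanned 29.7 kb from 123237805 to 123267546 and held no region that was not a member. After the largest region came one from 123243068 to 123245121, with 1136 and 1185 bp in Gel against 1980 and 1837 bp in CuNZ@Gel. Its folds were 6.11 and 5.30 against 9.70 and 10.4. The third, from 123264433 to 123267546, had 2033 and 1820 bp against 2765 and 2599 bp, and all of its 644 newly covered bases lay before the first Gel peak. Added over the run, peaks covered 4874 and 4567 bp in Gel against 9786 and 9175 bp in CuNZ@Gel.

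The run on chromosome X was the most compact, at 4.18 kb from 73468281 to 73472462, again with members only. Its first region had 493 and 321 bp in Gel against 610 and 539 bp in CuNZ@Gel. The middle one, from 73469143 to 73469814, had 242 and 432 bp against 625 and 644 bp, with folds of 3.74 and 3.03 against 7.84 and 5.50. In the last, from 73470347, widths were 1162 and 1376 bp against 2108 and 2012 bp. There 2 and 4 Gel peaks became 1 peak in each CuNZ@Gel library, and 351 of the 352 newly covered bases lay between Gel peaks.

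On chromosome 19, from 9930369 to 9959867, 3 members lay among 12 regions. The member from 9958554 to 9959867 had 961 and 919 bp in Gel against 1303 and 1191 bp in CuNZ@Gel. Before it, with a short peak of CuNZ@Gel replicate 1 in between, lay a region from 9956121 to 9956945 with peaks in both CuNZ@Gel libraries, of 800 and 704 bp, and in neither Gel library. Not all of the stretch went that way: the region from 9932083 to 9934147 was narrower in CuNZ@Gel, with 1691 and 1551 bp against 1966 and 2049 bp. Added over the shared regions of the run, coverage overlapped between groups, at 6442 and 6144 bp in Gel against 6599 and 5941 bp in CuNZ@Gel. The run on chromosome 13, from 63255392 to 63288616, had gaps of 46, 57 and 4 bp. Added over its shared regions, coverage was 4335 and 4289 bp in Gel against 4581 and 4763 bp in CuNZ@Gel. Its first region had overlapping folds, of 5.88 and 6.81 in Gel and 3.71 and 6.94 in CuNZ@Gel. The member from 63260061 had folds of 6.23 and 6.24 against 6.97 and 8.10. Folds of the member from 63287259 were 4.97 and 4.92 against 5.28 and 5.93.

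**Figure D5:**
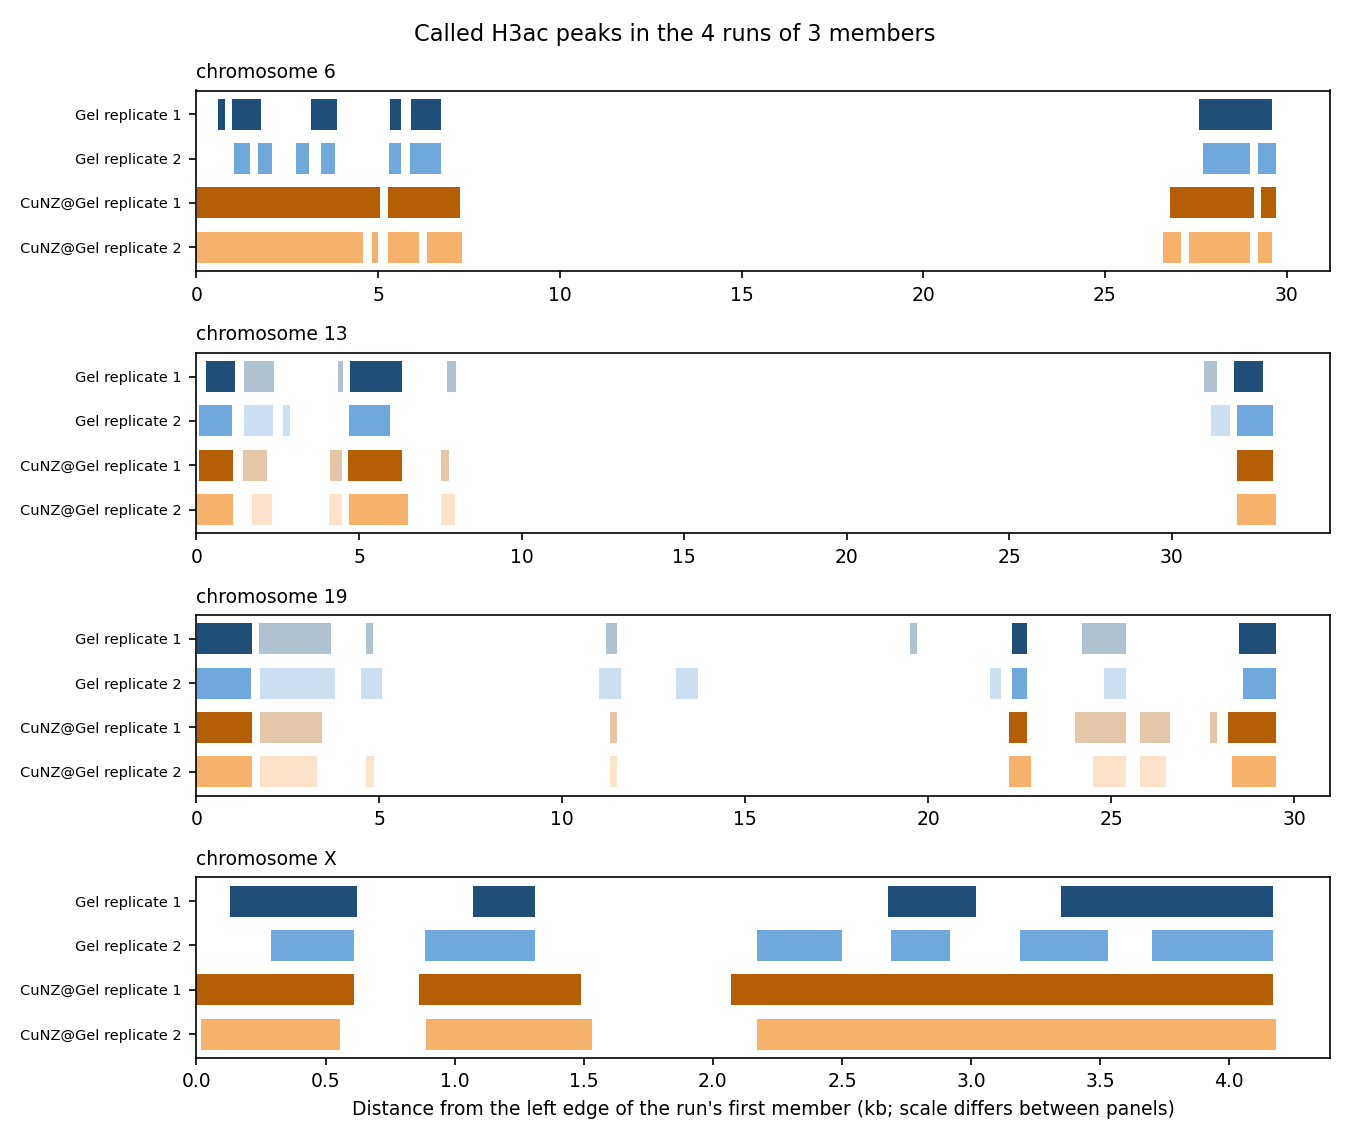
Called H3ac peaks (bars) in the 4 libraries along the 4 runs of 3 members, as distance (kb) from the left edge of the first member, with a scale of its own in each panel. Full colour marks peaks of members and pale colour other peaks. On chromosomes 6 and X every peak belongs to a member, and separate Gel peaks give way to fewer, longer peaks in CuNZ@Gel in the first chromosome 6 region and the last chromosome X region. The chromosome 13 and 19 runs also hold other peaks.

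The surroundings of the members were also described. A region with peaks in both CuNZ@Gel libraries and neither Gel library lay within 10 kb of 11 of the 275 members (4.00%), against 0.943% of other shared regions. These 11 included the first 2 regions of the chromosome 6 run, the chromosome 7 region from 140972145 and 2 of the chromosome 19 run. Regions with peaks in both Gel libraries only were near 26.9% of members and 31.0% of other shared regions. Among the 33 other shared regions within 10 kb of a member with a gap of at least 200 bp, 16 (48.5%) were narrower in each CuNZ@Gel library, against 75.5% of shared regions further away. Their median difference was -243 bp, against -302.5 bp further away. Around all members, 180 of 274 such neighbours (65.7%) were narrower in each CuNZ@Gel library, against 75.6% further away. The rule read the other shared regions too and left them out on these same widths. Their width order is thus a description and no separate support for the set. Members and neighbours share libraries and sequence surroundings, and no test was made. Local background over 2 times that of the library was found in 2 to 4 members per library, and 271 of the 275 had it in none. By library this was 0.727% to 1.45% of members, against 0.507% to 0.666% of all shared regions.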

How the data were processed

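H3ac peak lists of 4 libraries, 2 for Gel and 2 for CuNZ@Gel, were used; the 4 input libraries and the 2 group lists were not used here. GRCm39 is the build, and MACS2 2.2.8, SAMtools 1.17, deepTools 3.5.6 and fastp are the tools, per the submitters' processing notes. How reads were aligned and which calling options were set is not given in the sources used here. For each peak the deposited lists give its ends, a score, a fold enrichment ratio at the summit, and p and q as −log10 values. The fold is the authors' value per peak and is set side by side across lists as a description only, since lists were called separately. Covered width and peak presence depend on the depth of a library, and its read total is unknown.

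Peaks were merged and measured with Python 3.11.15, pandas 2.3.3 and numpy 2.4.6. Summit fragments and background were solved (scipy 1.17.1) from fold = (fragments + 1) / (background + 1) and a Poisson p, within a relative tolerance of 0.0001 for 100% of peaks, and the commonest background was taken as the library background. This assumes the caller's usual formulas. For each region and library, the highest fold, the highest summit fragments and the highest background were taken separately over its peaks. Merging, rule and solution were tested on simulated data.

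The members and lists were chosen with earlier results of these data known. Named regions are the 10 with the largest gap, runs of 3 or more members no more than 100 kb apart, 3 regions on each side of the rule's edge, and others said to be picked after their values were seen, among them the regions of 4000 bp or more. The gene lists and cell type markers drawn up for this work were not used, since no annotation of GRCm39 was used here. No p-values were computed, because the rule used all 4 libraries.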

Additional observations from a re-analysis of the deposited data

How the results depend on the processing

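With 2 libraries a group, calls of width order are limited by depth and by the peak threshold. Members numbered 224 to 274 at a −log10 q of at least 3, with equal list length, with peaks up to 200 bp apart merged, with 20% of the region covered in each library, and with the limit on local background; of the 275, between 204 and 274 overlapped a member there. A margin of at least 100 bp left 80 members by construction, with a median gain of 292 bp, 45 with higher fold, 53 with higher summit height, and 13 neighbours. Of these members 42.5% were under 1000 bp, and 84.8% of new bases lay outside the outermost Gel peaks. Equal list length gave 60 with higher fold, 13 neighbours, 53.6% under 1000 bp, 91.4% outside and a share of 18.5% wider in the other pair, summed over the 4 ways to choose a pair, against 20.5% as deposited. The share under 1000 bp was 56.7% at the stricter threshold and 58.4% after wider merging, and the share outside was 91.2%, 83.7% and, with 20% covered, 89.1%. Without any 1 library, members numbered 913 to 1784, those with higher fold 324 to 594, with higher summit height 438 to 669 and neighbours 91 to 254, with 69.1% to 72.5% under 1000 bp and 90.3% to 93.1% outside; fewer libraries loosen the rule. Where else a value moved, the cause was not tested. In all these settings, fold order, summit height order and neighbours were counted among members only. Settings for summit height, width class, place of gain and the pair-by-pair reading were added after seeing the data. No paired analysis was possible because no test was made, so there was no fit to which a replicate block could be added.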

Other observations

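Outside the members, 10 shared regions had more summit fragments in each CuNZ@Gel library than in each Gel library although their widths overlapped between groups or were equal at the edge. The chromosome 4 region from 149254458 to 149256073, which missed the rule by a tie, had 26 and 25 fragments in Gel and 56 and 38 in CuNZ@Gel, with folds of 4.81 and 4.92 against 12.8 and 11.02. The chromosome 1 region from 74414320 to 74416593 had 49 and 48 fragments against 72 and 50, with 2272 and 2012 bp in Gel against 2080 and 2039 bp in CuNZ@Gel. The chromosome 3 region from 50579972 to 50582930, further along from the pair of members there, had 52 and 48 fragments against 68 and 59. These regions were picked after their values were seen.

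Among the 15 pairs of members, the chromosome 1 pair from 165591324 to 165597481 covered 3851 and 3442 bp in Gel and 5809 and 5244 bp in CuNZ@Gel. No other region lay inside it. Not every pair rose once the other shared regions in its stretch were added. Sums were lower in both CuNZ@Gel libraries for pairs on chromosome 2 from 130329424 and from 132053710, and on chromosome 7 from 140774143. In the first of these they were 7148 and 6993 bp in Gel against 6145 and 5608 bp in CuNZ@Gel. Sums overlapped between groups for pairs on chromosome 8 from 94897900 and chromosome 17 from 71045304. On unplaced scaffolds, which entered no comparison, 55 regions had peaks in all 4 libraries and 2 of them met the same rule.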
